A study of Mus musculus with 899 samples.

Results

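The late part of the study followed plasma miRNA at months 1, 2, 3 and 4 after whole thorax lung irradiation (WTLI) in C57Bl/6 and C3H mice, and the question was whether irradiated mice departed from sham mice to the same extent in both strains. The members were chosen by strain and time point as the labels give them: 454 of the 899 plasma samples of the series, with 190 at month 1, 96 at month 2, 90 at month 3 and 78 at month 4. They came from 190 mice, of which 78 were sampled at all 4 months and 94 at 1 month only. Among C57Bl/6 mice, 68, 36, 31 and 29 irradiated mice were sampled at months 1 to 4, against 32, 16, 16 and 16 sham mice. Among C3H mice, 58, 28, 27 and 17 irradiated mice were sampled, against 32, 16, 16 and 16 sham mice. Both sexes were used, and mice were 8 to 12 weeks old at irradiation. The sample titles carry 2 group codes in each strain, which are called cohorts 1 and 2 here. Only cohort 1 has samples beyond month 1. Sham mice received no radiation dose, the beam was restricted to the thorax by shielding, and blood was drawn behind the eye under isoflurane, or from the heart in the last bleed of a killed mouse. Which samples came by which route is not given in the labels used here, so route and time point cannot be told apart. The paper places the C3H study endpoint at month 4 and the C57Bl/6 endpoint later. At month 4, route and strain therefore cannot be told apart either. Plasma with excess hemolysis had been left out by the study. The mice were gnotobiotic, and the C3H mice were of the C3Hf/Sed/Kam line. Each strain received its own dose, set from the lethality in that strain, so strain and dose cannot be told apart. The doses that the paper gives for the strains are nearly equal. Late groups hold only mice alive at that month, and 4 irradiated C57Bl/6 mice, with 16 of the late samples, have no sample before irradiation.

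Circulating miRNA are short RNA that leave cells in vesicles, protein complexes or with dying cells, and a miRNA made mainly in a single organ can therefore mark that organ in plasma. The cluster of miR-216 and miR-217 is typical of acinar cells of the exocrine pancreas, miR-375 of endocrine cells, miR-122 of hepatocytes, where miR-192 and miR-802 are also abundant, and miR-150 of mature lymphocytes. Thorax irradiation with C3H and C57Bl/6 mice is a common pair of models for radiation pneumonitis and for lung fibrosis. A strain difference is given throughout as the log2 ratio of irradiated to sham mice in C57Bl/6 minus the same log2 ratio in C3H, so a positive value means a higher ratio in C57Bl/6. Levels are log2 CPM, reads scaled to the size of each library after TMM normalization, on which a library with no read lies at 0.23. Plasma levels are relative, and a change in the number of releasing cells cannot be told apart from a change in the amount released per cell.

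Mature sequences are shown for the miRNA whose strain difference is described at length, from RefSeq in build GRCm38.p6, where 20 of the 27 named miRNA matched. They are written 5′ to 3′ with the seed, bases 2 to 8, in capitals. The first 3 belong to the cluster of miR-216 and miR-217, the next 2 are liver miRNA, and the last was called with a small difference.
miR-216a-5p: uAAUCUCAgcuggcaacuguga
miR-216b-5p: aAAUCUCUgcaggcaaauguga
miR-217-5p: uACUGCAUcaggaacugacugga
miR-192-5p: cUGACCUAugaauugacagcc
miR-802-5p: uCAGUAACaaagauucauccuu
miR-30a-5p: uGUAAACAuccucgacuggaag
The mature miR-216a-5p and miR-216b-5p were identical at 18 of 22 positions and at 6 of the 7 seed positions, whereas miR-216a-5p and miR-217-5p shared 2 seed positions. The 3 mature miRNA lie on the plus strand at chr11:28757018-28757039, chr11:28746204-28746225 and chr11:28763761-28763783. In the GRCm38 annotation the genes Mir216a and Mir217 lie in an intron of the long non-coding RNA gene Gm12082 and Mir216b is intergenic, and the 3 genes together span 17645 bases. Mir192 on chromosome 19, Mir802 on chromosome 16, Mir30a on chromosome 1 and Mir150 on chromosome 7 are intergenic.

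A strain difference over the 4 late months was found for few miRNA. Of 483 miRNA tested, 10 (2.07%) passed an adjusted p of 0.05 in edgeR's quasi-likelihood F test of the 4 months together, and 45 had an unadjusted p under 0.05. Ordered by adjusted p, the list opened with miR-216a-5p and continued with miR-122-5p, miR-216b-5p, miR-7a-5p, miR-217-5p, miR-150-5p, miR-219a-2-3p, miR-7687-3p, miR-192-5p and miR-30a-5p. By month, 6 miRNA (1.24%) were called at month 1, 4 higher and 2 lower in C57Bl/6, 1 (0.207%) at month 2, 2 (0.414%) at month 3 and 6 (1.24%) at month 4, 5 higher and 1 lower. The mean over the 4 months was called for 10 miRNA (2.07%), 9 of them higher in C57Bl/6, and 14 miRNA passed either the F test or the mean. The strain difference changed between months for 5 miRNA (1.04%) by the same edgeR test: miR-122-5p, miR-7687-3p, miR-7a-5p, miR-192-5p and miR-540-5p. In this test month 1 holds both cohorts and months 2 to 4 only cohort 1, so month is mixed with cohort. Only miR-216a-5p was called at every month. Before irradiation, 0 of the 483 miRNA (0%) were called by edgeR, and also 0 by DESeq2 and by limma-voom, with 22 at an unadjusted p under 0.05 by edgeR. The mean strain difference had a median of 0.03 over all miRNA tested and was positive for 267 of them.

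**Figure D1:**
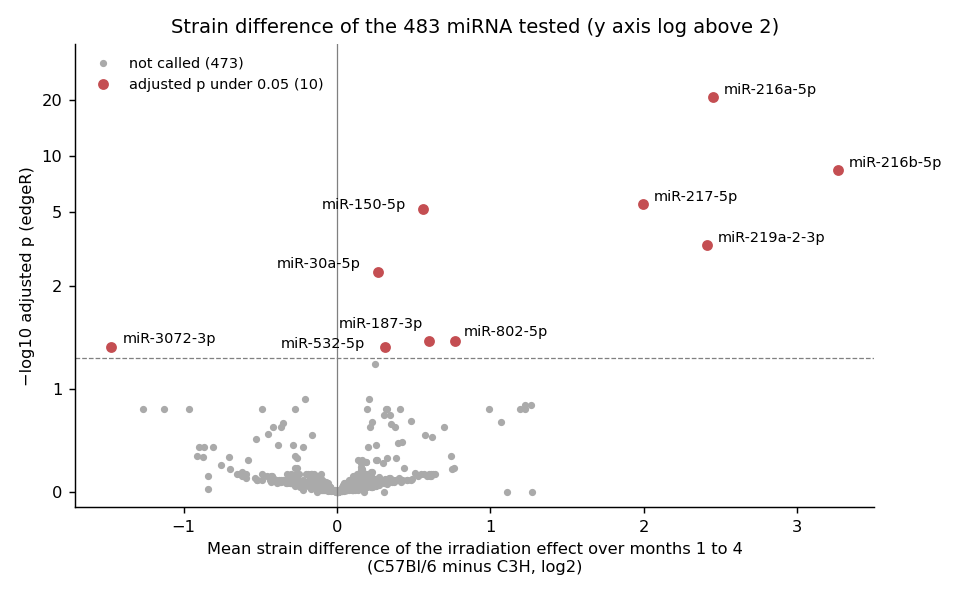
Each point is 1 of the 483 miRNA tested; the x axis is the mean strain difference over months 1 to 4 (log2, C57Bl/6 minus C3H) and the y axis is -log10 of its adjusted p by edgeR, linear up to 2 and logarithmic above. The 10 called miRNA are red and named: miR-216a-5p is highest on the y axis, miR-216b-5p lies farthest to the right at 3.27, and only miR-3072-3p is called on the left.

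The strongest strain difference was that of miR-216a-5p, which was higher in irradiated than in sham C57Bl/6 mice at every late month and did not differ detectably in C3H mice. At month 1 its level was 0.23 to 4.09 (median 2.37) log2 CPM in sham and 2.03 to 6.29 (median 4.02) in irradiated C57Bl/6 mice. At month 2 it was 0.23 to 3.99 (median 2.42) in sham and 1.35 to 7.17 (median 4.93) in irradiated C57Bl/6 mice. At month 3 the levels were 0.23 to 5.19 (median 2.53) and 1.49 to 7.10 (median 5.28), and at month 4 they were 0.23 to 4.54 (median 2.74) and 0.23 to 6.54 (median 4.68). The ranges overlapped at each month: 32 of 68, 29 of 36, 17 of 31 and 16 of 29 irradiated C57Bl/6 mice lay above the highest sham mouse, and 65, 33, 29 and 26 of them above the sham median. In C3H mice the sham levels were 3.22 to 5.72 (median 4.68), 3.75 to 5.73 (median 4.38), 2.72 to 5.80 (median 4.56) and 3.25 to 5.49 (median 4.53) at months 1 to 4. The irradiated C3H levels were 2.68 to 5.53 (median 4.59), 3.49 to 5.81 (median 4.41), 0.23 to 5.54 (median 4.53) and 3.12 to 5.55 (median 4.92). Of the irradiated C3H mice, 0 of 58, 1 of 28, 0 of 27 and 2 of 17 exceeded the highest sham mouse.

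Irradiation was followed by a miR-216a-5p ratio of 4.19, 8.34, 5.40 and 4.92 in C57Bl/6 and of 0.927, 0.971, 0.929 and 1.25 in C3H mice at months 1 to 4. The strain difference was 2.18 ± 0.35 (SE, adjusted p = 2.7e-07) at month 1 and 3.10 ± 0.50 (adjusted p = 3.95e-07) at month 2 under the quasi-likelihood test of edgeR. It was 2.54 ± 0.49 (adjusted p = 0.000125) at month 3 and 1.98 ± 0.52 (adjusted p = 0.0147) at month 4 by the same edgeR test. The month 4 value of miR-216a-5p was not called by limma-voom, either without a mouse block or with one. By limma-voom it was 1.91 (adjusted p = 0.0709) with mouse as a random block and 2.26 (adjusted p = 0.0732) with a fixed block. The mean over the 4 months was 2.45 (95% interval 1.99 to 2.91, adjusted p = 2.34e-21 by edgeR), against -0.10 ± 0.37 (adjusted p = 0.983) before irradiation. This edgeR fit treats samples of the same mouse as independent. By limma-voom the mean was 2.40 with the random block (adjusted p = 1.5e-17) and 2.64 with the fixed block (adjusted p = 6.38e-07). With 1 value per mouse of cohort 1 in limma it was 2.18 (adjusted p = 5.85e-08). A change between months was not detected (adjusted p = 1 by edgeR's F test). At month 1, where both cohorts were sampled, the strain difference of miR-216a-5p was 1.94 ± 0.50 in cohort 1 (adjusted p = 0.0591) and 2.35 ± 0.44 in cohort 2 (adjusted p = 2.52e-05) by edgeR, and the difference between cohorts was not called (adjusted p = 0.975). The mean strain difference was 2.75 ± 0.33 in females and 2.05 ± 0.32 in males.

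**Figure D2:**
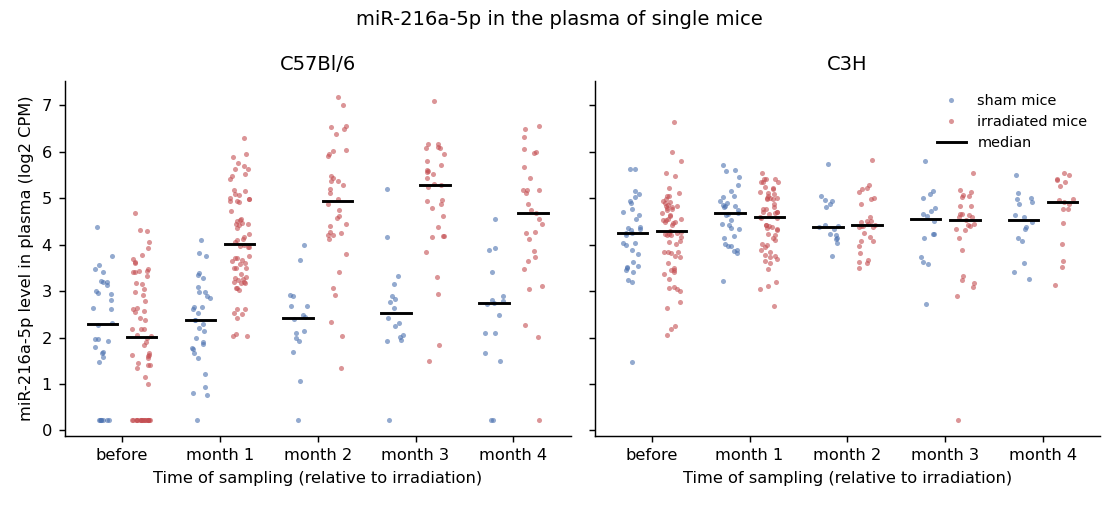
Each point is 1 mouse; the y axis is the level of miR-216a-5p in plasma (log2 CPM, with libraries without a read at 0.23), the x axis the time of sampling, blue sham and red irradiated mice, and black bars medians. In C57Bl/6 the irradiated medians of 4.02 to 5.28 at months 1 to 4 lie above the sham medians of 2.37 to 2.74, and in C3H the medians of both groups lie between 4.38 and 4.92.

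The strains also differed in miR-216a-5p without irradiation. Between sham mice of the strains, 172 of the 483 miRNA tested were called over the 4 months by edgeR, 95 higher and 77 lower in C57Bl/6. Over the 4 months, sham C57Bl/6 mice were 2.03 ± 0.19 lower than sham C3H mice on the log2 scale (C57Bl/6 minus C3H -2.03, adjusted p = 9.58e-23 by edgeR), while irradiated C57Bl/6 mice were 0.42 ± 0.14 higher than irradiated C3H mice (adjusted p = 0.00771). Within mice, the level was higher after than before irradiation in 57 of 64, 31 of 32, 27 of 27 and 22 of 25 irradiated C57Bl/6 mice at months 1 to 4, with median changes of 1.98, 3.02, 2.96 and 2.58. In sham C57Bl/6 mice the same count was 20 of 32, 11 of 16, 10 of 16 and 12 of 16, with median changes of 0.22, 0.78, 1.15 and 0.79. The median change in irradiated C3H mice was 0.16, 0.70, 0.87 and 0.97, and in sham C3H mice 0.44, 0.81, 0.51 and 0.60. The library with the largest share of a group's summed CPM of miR-216a-5p was that of a sham C57Bl/6 male at month 3. It held 105 of the group's 253 reads. Without it the month 3 strain difference was 3.01 (adjusted p = 1.6e-06 by edgeR).

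The other mature miRNA of the cluster had strain differences of the same sign and fewer reads. For miR-217-5p, reads were found in 48 of 68, 33 of 36, 25 of 31 and 22 of 29 irradiated C57Bl/6 mice at months 1 to 4, against 16 of 32, 9 of 16, 6 of 16 and 7 of 16 sham mice. The median level was 1.85, 2.72, 2.33 and 2.76 log2 CPM in irradiated and 0.34, 0.90, 0.23 and 0.23 in sham C57Bl/6 mice, and 24, 22, 12 and 14 irradiated mice lay above the highest sham mouse. In C3H mice the medians were 2.39, 1.98, 1.35 and 2.27 in irradiated and 2.16, 2.10, 2.11 and 2.06 in sham mice, with overlapping ranges at each month. The strain difference of miR-217-5p was 1.37 ± 0.52, 2.65 ± 0.76, 2.67 ± 0.75 and 1.27 ± 0.77 by month, of which none was called by edgeR (adjusted p = 0.259, 0.0751, 0.0658 and 0.673). Its mean was 1.99 (95% interval 1.30 to 2.68, adjusted p = 3.38e-06 by edgeR). In a limma-voom fit with a fixed term for each mouse, neither that mean (1.73, adjusted p = 0.175) nor the F test of miR-217-5p (adjusted p = 0.54) was called. Without the library of the same sham C57Bl/6 male at month 3, which held 13 of the 20 reads of its group, the month 3 value was 3.65 and was called (adjusted p = 0.00163 by edgeR). Sham C57Bl/6 mice again lay below sham C3H mice, by -1.72 ± 0.29 (adjusted p = 3.72e-08 by edgeR), and irradiated mice of the strains did not differ detectably (0.28 ± 0.21, adjusted p = 0.274).

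For miR-216b-5p, the least abundant of the 3, sham C57Bl/6 mice gave 7, 2, 4 and 0 reads in all at months 1 to 4 and irradiated C57Bl/6 mice 37, 70, 48 and 35 reads. Reads were found in 11 of 68, 16 of 36, 10 of 31 and 8 of 29 irradiated C57Bl/6 mice, against 1 of 32, 1 of 16, 1 of 16 and 0 of 16 sham mice. In C3H mice, reads were found in 28 of 58, 8 of 28, 3 of 27 and 4 of 17 irradiated and in 21 of 32, 5 of 16, 4 of 16 and 8 of 16 sham mice. At month 4, the pooled and scaled reads of irradiated C57Bl/6 mice were 5.89 times a counting floor of 3 reads in sham mice. The floor is what a count of 0 allows over the sham group. This ratio covers counting error in the sham group only and no spread between mice. The 35 irradiated reads came from 8 of 29 mice, so the ratio is not a lower bound for the difference between the groups. The mean strain difference of miR-216b-5p was fitted at 3.27 ± 0.48 (adjusted p = 4.55e-09 by edgeR), a size that depends on the prior count because a group held no read, with the month 4 value alone called (adjusted p = 0.00168), and sham C57Bl/6 mice were lower than sham C3H mice by -2.69 ± 0.40 (adjusted p = 4.4e-10). In the alternatives the mean of miR-216b-5p kept its sign and ran from 0.62, for quantile normalized values in limma (adjusted p = 0.00449), to 3.36. It was 1.27 by limma-voom (adjusted p = 0.000601) and 0.67, not called, with 1 value per mouse in limma (adjusted p = 0.0696). At month 4, mouse as a random block in limma-voom gave miR-216b-5p a value of 1.99 that was not called (adjusted p = 0.105). Limma-voom without a block did not call miR-216b-5p at month 4 either. Before irradiation its strain difference was -1.94 ± 0.74, which was not called (adjusted p = 0.722 by edgeR).

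Of the 11 pancreatic miRNA listed, 7 were tested and 4 were called by the F test: the 3 cluster members and miR-7a-5p, beside 10 of 483 (2.07%) over all miRNA. The call of miR-7a-5p was lost without 1 library (adjusted p = 0.991 by edgeR). The median of their mean strain differences was 0.41, against 0.03 over all miRNA. The islet miRNA miR-375-3p, an abundant regulator of hormone secretion, had a mean strain difference of 0.09 ± 0.12 (adjusted p = 0.817 by edgeR), with 1.13-fold in C57Bl/6 and 1.06-fold in C3H. Of the other tested members, miR-7a-2-3p had 0.41 and miR-7b-5p -0.26, and neither was called.

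The strain difference of miR-122-5p, the hepatocyte miRNA, was negative at month 1, where both cohorts were sampled. It was positive at months 2 to 4, where only cohort 1 was sampled. At month 1 the level was 9.77 to 13.61 (median 11.58) log2 CPM in irradiated and 9.56 to 16.01 (median 11.28) in sham C57Bl/6 mice. In C3H mice at month 1 it was 10.30 to 14.71 (median 12.19) in irradiated and 10.05 to 12.49 (median 11.21) in sham mice. At month 4 it was 9.79 to 16.70 (median 13.54) in irradiated and 9.72 to 12.41 (median 11.45) in sham C57Bl/6 mice, and 10.46 to 14.09 (median 12.01) in irradiated and 10.58 to 13.02 (median 11.66) in sham C3H mice. The number of irradiated mice above the highest sham mouse was 0 of 68, 16 of 36, 15 of 31 and 19 of 29 in C57Bl/6 and 22 of 58, 13 of 28, 2 of 27 and 4 of 17 in C3H at months 1 to 4, and the ranges overlapped at each month. The highest sham C57Bl/6 level at month 1 is that of the single library at 16.01. Above the sham median lay 48 of 68, 35 of 36, 30 of 31 and 25 of 29 irradiated mice in C57Bl/6 and 49 of 58, 25 of 28, 21 of 27 and 11 of 17 in C3H.

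In C57Bl/6 the irradiated to sham ratio of miR-122-5p was 0.683, 2.57, 2.77 and 7.85 at months 1 to 4, and in C3H it was 2.51, 2.05, 1.91 and 1.80. The month 1 ratio in C57Bl/6 is below 1 although the irradiated median was above the sham median. The strain difference was -1.88 ± 0.32 at month 1 (adjusted p = 1.63e-06), 0.32 ± 0.45 at month 2, 0.53 ± 0.46 at month 3 and 2.13 ± 0.50 at month 4 (adjusted p = 0.00561 by edgeR). Its change between months was called (adjusted p = 2.75e-08 by edgeR's F test), and the mean over the months was not (0.28 ± 0.22, adjusted p = 0.714). By limma-voom the month 1 value of miR-122-5p was -1.05 and was not called (adjusted p = 0.0864), nor was it with mouse as a random block (-1.04, adjusted p = 0.0782) or a fixed block (-1.09, adjusted p = 0.522). Its month 4 value was 1.79 by limma-voom (adjusted p = 0.0486), 1.79 with the random block (adjusted p = 0.0399) and 1.75, not called, with the fixed block (adjusted p = 0.157). Among mice sampled at both months, miR-122-5p was higher at month 4 than at month 1 in 25 of 29 irradiated C57Bl/6 mice, with a median change of 1.42, and in 7 of 16 sham C57Bl/6 mice. In C3H the count was 9 of 17 irradiated and 11 of 16 sham mice.

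The month 1 value of miR-122-5p depended in part on 1 library. A sham C57Bl/6 male of cohort 2 held 162233 of the 424112 reads of its group of 32, with a level of 16.01. Without it the month 1 strain difference was -1.27 ± 0.32 (adjusted p = 0.00782 by edgeR), the month 4 value stayed 2.13, and the change between months was called (adjusted p = 3.22e-05). In cohort 1 alone the month 1 value was -0.84 ± 0.43 (adjusted p = 0.985), and in cohort 2 alone it was -2.76 ± 0.47 (adjusted p = 7.65e-06) by edgeR, with no called difference between cohorts (adjusted p = 0.49). The month 1 value of miR-122-5p was not called in mice sampled at all 4 months either. Only cohort 1 was followed past month 1, so the change between months mixes month with cohort. For the opposite arm, miR-122-3p, the month 1 value was -2.58 ± 0.72 (adjusted p = 0.0272 by edgeR). The same male held 45 of the 93 reads of its group, and without it the value of miR-122-3p was -1.85 (adjusted p = 0.37). With all libraries it was -1.07 with the random block (adjusted p = 0.629 by limma-voom), and limma-voom without a block did not call it either.

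**Figure D3:**
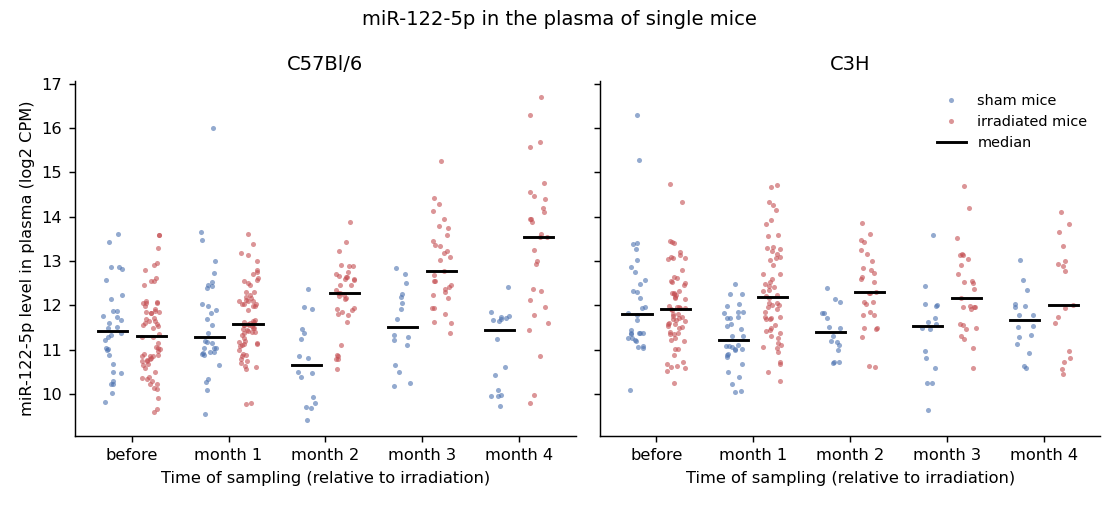
Each point is 1 mouse; the y axis is the level of miR-122-5p in plasma (log2 CPM), the x axis the time of sampling, blue sham and red irradiated mice, and black bars medians. In C57Bl/6 the irradiated median goes from 11.58 at month 1 to 13.54 at month 4 while the sham medians stay between 10.66 and 11.51, and a single sham mouse at month 1 lies at 16.01. In C3H the irradiated medians lie between 12.01 and 12.30.

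The liver miRNA miR-192-5p and miR-802-5p had their largest strain difference at month 4. The level of miR-192-5p, which is shared by liver and intestine, was 11.30 to 14.66 (median 12.90) log2 CPM in irradiated and 10.98 to 12.88 (median 12.02) in sham C57Bl/6 mice at month 4, and 15 of 29 irradiated mice lay above the highest sham mouse. In C3H it was 11.65 to 13.32 (median 12.49) in irradiated and 10.55 to 13.28 (median 12.30) in sham mice, with 1 of 17 irradiated mice above the range. The strain difference of miR-192-5p was -0.31 ± 0.18, 0.42 ± 0.25, 0.14 ± 0.26 and 1.03 ± 0.27 at months 1 to 4, and only the last was called (adjusted p = 0.0152 by edgeR). Its F test and its change between months were called (adjusted p = 0.0275 and 0.0452 by edgeR), but without the sham male named above, which held 92955 of 405102 reads of its group, neither was (adjusted p = 0.0588 and 0.516), and the mean over the months was 0.39 and called (adjusted p = 0.0452). With mouse as a random block in limma-voom, the month 4 value of miR-192-5p was 0.81 (adjusted p = 0.105) and its F test was not called (adjusted p = 0.128). Neither was called by limma-voom without a block.

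For miR-802-5p, a hepatocyte miRNA also known from obese liver, irradiated C57Bl/6 mice at month 4 had 1.66 to 5.93 (median 4.32) and sham mice 1.21 to 3.91 (median 2.72) log2 CPM, with 17 of 29 irradiated mice above the highest sham mouse. In C3H the irradiated mice had 3.15 to 6.03 (median 4.41) and sham mice 2.23 to 5.39 (median 3.86). The strain difference was 0.20 ± 0.33, 0.55 ± 0.46, 0.78 ± 0.46 and 1.54 ± 0.50 by month, with none called (adjusted p = 0.117 at month 4 by edgeR), and the mean of 0.77 ± 0.22 was called (adjusted p = 0.0345). Without a sham C3H female at month 3 with 195 of 644 reads of its group, the mean of miR-802-5p was 0.71 (adjusted p = 0.0609), and with the fixed mouse block it was 0.18 (adjusted p = 0.956 by limma-voom). Before irradiation the strain difference of miR-802-5p was already 0.97 ± 0.34, which was not called (adjusted p = 0.722 by edgeR).

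Of the 11 hepatocyte miRNA listed, 9 were tested, 2 were called by the F test (miR-122-5p and miR-192-5p), and 8 had a positive mean strain difference. Over all 483 miRNA, 10 (2.07%) were called by the F test and 267 had a positive mean. The median of the list was -0.23 at month 1, 0.42 at month 2, 0.15 at month 3 and 1.03 at month 4, against -0.02, 0.10, -0.01 and 0.05 over all miRNA tested. At month 4 the members ran from 0.18 for miR-101b-3p to 2.13 for miR-122-5p, and 2 were called, against 6 of 483 (1.24%) over all miRNA. Among the members named here after their values were seen, miR-194-5p had 0.74 and miR-148a-3p 0.29 at month 4, and neither was called.

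**Figure D4:**
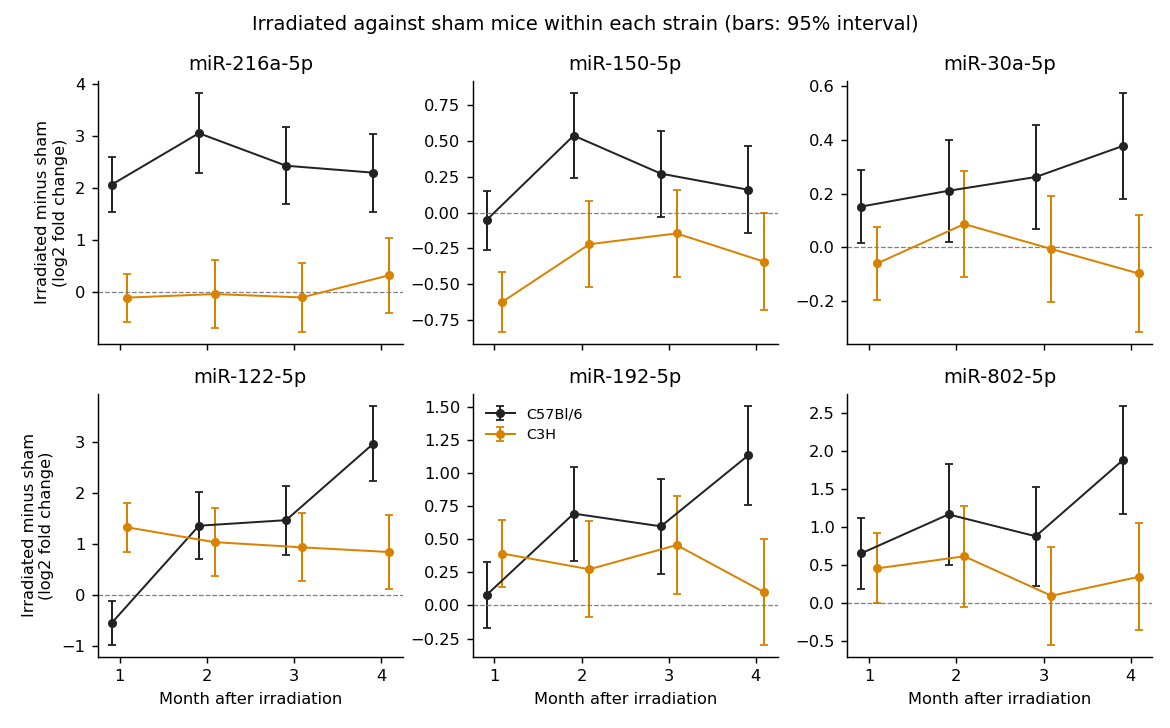
Each panel is 1 miRNA; the y axis is the log2 fold change of irradiated against sham mice, the x axis the month after irradiation, black C57Bl/6 and orange C3H, and bars are 95% intervals. For miR-216a-5p the C57Bl/6 values of 2.07 to 3.06 stay above the C3H values of -0.11 to 0.32 at each month, and for miR-122-5p the order of the strains at month 1 is the opposite of that at month 4.

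The lymphocyte miRNA miR-150-5p was lower in irradiated than in sham C3H mice at month 1 and not in C57Bl/6 mice, and its strain difference kept its sign at all 4 months. At month 1 its level was 11.01 to 13.78 (median 12.67) log2 CPM in irradiated and 11.35 to 14.52 (median 13.21) in sham C3H mice, against 11.81 to 14.22 (median 13.12) and 11.73 to 14.17 (median 13.22) in C57Bl/6. At month 2 the medians were 12.99 in irradiated and 13.27 in sham C3H mice, and 13.51 and 13.07 in C57Bl/6. The ranges overlapped, with 52 of 58 irradiated C3H mice below the sham median at month 1 and 29 of 36 irradiated C57Bl/6 mice above it at month 2. The irradiated to sham ratio was 0.649 in C3H at month 1 (adjusted p = 8.16e-07 by edgeR) and 1.45 in C57Bl/6 at month 2 (adjusted p = 0.0165).

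The strain difference of miR-150-5p was 0.57 ± 0.15 at month 1 (adjusted p = 0.0166), 0.76 ± 0.21 at month 2 (adjusted p = 0.0751), 0.42 ± 0.22 at month 3 and 0.50 ± 0.23 at month 4 by edgeR. The mean was 0.56 (95% interval 0.36 to 0.76, adjusted p = 7.23e-06 by edgeR), made of a 1.17-fold ratio in C57Bl/6 and a 0.794-fold ratio in C3H mice, and it was 0.03 ± 0.15 before irradiation. At month 1 it was 0.44 ± 0.20 in cohort 1 and 0.59 ± 0.21 in cohort 2, called in neither alone (adjusted p = 0.905 and 0.189 by edgeR). The month 1 call of miR-150-5p held in 7 of 19 alternatives (0.44 to 0.63). With mouse as a random block in limma-voom the month 1 value was 0.54 (adjusted p = 0.0705). Limma-voom without a block did not call the month 1 value either. The fixed block gave 0.49 (adjusted p = 0.635) at month 1, a mean of 0.58 (adjusted p = 0.183) and an F test adjusted p of 0.54. Within mice, miR-150-5p was higher at month 1 than before irradiation in 3 of 58 irradiated C3H mice and in 16 of 64 irradiated C57Bl/6 mice, with median changes of -0.95 and -0.49, against -0.30 and -0.23 in sham mice. Sham mice of the strains did not differ detectably (-0.15 ± 0.08, adjusted p = 0.142), and irradiated C57Bl/6 mice were 0.42 ± 0.06 above irradiated C3H mice (adjusted p = 8.16e-10).

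Of 12 leukocyte miRNA listed, 11 were tested and miR-150-5p was the only one called by the F test or the mean. Over all 483 miRNA, 14 were called by either test and 267 had a positive mean. The median of the list was 0.15, with 9 of 11 positive. The activation-linked miR-155-5p had 0.19 ± 0.13 and the leukocyte miRNA miR-142a-3p had 0.08 ± 0.18 as the mean strain difference, with adjusted p of 0.679 and 0.895 by edgeR.

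A small strain difference was called for miR-30a-5p, a broadly expressed miRNA. At month 4 its level was 10.77 to 11.87 (median 11.21) log2 CPM in irradiated and 10.20 to 11.33 (median 10.85) in sham C57Bl/6 mice, and 11.05 to 11.70 (median 11.45) and 11.06 to 11.87 (median 11.49) in C3H mice. The strain difference was 0.21 ± 0.10, 0.12 ± 0.14, 0.27 ± 0.14 and 0.47 ± 0.15 at months 1 to 4 and was called at none of them by edgeR (adjusted p = 0.0914 at month 4). The mean was 0.27 ± 0.07 (adjusted p = 0.00433), and the F test gave an adjusted p of 0.0367, or 0.06 without the sham C3H male at month 3 that held the largest share. With the fixed mouse block in limma-voom, the mean of miR-30a-5p was 0.31 (adjusted p = 0.4). Within mice, miR-30a-5p was higher at month 4 than before irradiation in 6 of 25 irradiated and 1 of 16 sham C57Bl/6 mice, and in 16 of 17 irradiated and 15 of 16 sham C3H mice. The median change in sham mice was -0.58 in C57Bl/6 and 0.66 in C3H, of opposite sign.

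Several calls rested on single libraries. The level of miR-7a-5p, a miRNA of endocrine and neural cells, was 5.59 to 13.85 (median 7.05) log2 CPM in irradiated and 5.02 to 8.28 (median 7.19) in sham C57Bl/6 mice at month 1. A single irradiated female of cohort 2 held 36348 of the 52498 reads of its group of 68. With it, the strain difference at month 1 was 1.44 ± 0.24 (adjusted p = 5.8e-07 by edgeR), and without it 0.13 ± 0.17 (adjusted p = 0.992), with an F test adjusted p of 0.991. The difference of miR-7a-5p between cohorts was the only one of 483 called at month 1 (adjusted p = 5.63e-05 by edgeR), where cohort 1 gave 0.00.

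For miR-219a-2-3p, a neural miRNA, an irradiated C57Bl/6 male at month 1 held 285 of the 327 reads of its group. The month 1 strain difference was 3.82 ± 0.78 (adjusted p = 0.000162 by edgeR) with it and 0.68 ± 0.62 (adjusted p = 0.99) without it. The mean over the months was 2.41 (adjusted p = 0.00051) and 1.63 without that library (adjusted p = 0.0467) by edgeR. It was 0.50 (adjusted p = 0.757 by edgeR) without all 3 libraries that held over 50% of their group's summed CPM. By limma-voom it was 0.52 without a block (adjusted p = 0.412) and 0.49 with the random block (adjusted p = 0.536), called in neither. The only negative call at month 4, that of miR-7687-3p, was -4.00 (adjusted p = 0.00776), from 15 reads in irradiated and 18 in sham C57Bl/6 mice and 31 and 2 in C3H mice. Without an irradiated C3H female with 8 of those 31 reads it was -3.32 (adjusted p = 0.0574).

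The remaining called miRNA had few reads or values close to the threshold. At month 4, miR-350-5p had 47 reads in irradiated and 1 read in sham C57Bl/6 mice and 9 and 57 reads in C3H mice, with a fitted strain difference of 4.64 (adjusted p = 0.00776 by edgeR). At month 3, miR-540-5p had 59 and 2 reads in C57Bl/6 and 13 and 38 in C3H mice, with a fitted value of 3.69 (adjusted p = 0.0483) that was 3.15 (adjusted p = 0.26) without a sham C3H male with 19 of the 38 reads. By the mean over the 4 months, miR-187-3p had 0.60 ± 0.17 (adjusted p = 0.0345), miR-532-5p 0.31 ± 0.09 (adjusted p = 0.039) and miR-3072-3p -1.47 ± 0.44 (adjusted p = 0.039) by edgeR. Without the library of largest share, the adjusted p was 0.059 for miR-187-3p, 0.00987 for miR-532-5p and 0.0914 for miR-3072-3p. With the fixed mouse block in limma-voom the adjusted p was 0.317 for miR-187-3p, 0.425 for miR-532-5p and 0.794 for miR-3072-3p. With the random block, miR-350-5p had 1.77 (adjusted p = 0.17), miR-540-5p 1.06 (adjusted p = 0.653) and miR-7687-3p -1.47 (adjusted p = 0.232). By limma-voom without a block, these values of miR-350-5p, miR-540-5p and miR-7687-3p were not called either. The miRNA miR-187-3p, miR-532-5p, miR-3072-3p and miR-350-5p lie outside the rule for named miRNA and were chosen after their values were seen. When the 13 libraries that held the largest share for any of 17 called miRNA were left out together, an alternative chosen after seeing the data, the F test called 6 miRNA (miR-216a-5p, miR-216b-5p, miR-217-5p, miR-122-5p, miR-150-5p and miR-7687-3p) and the mean called 4 (the 3 cluster members and miR-150-5p).

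**Figure D5:**
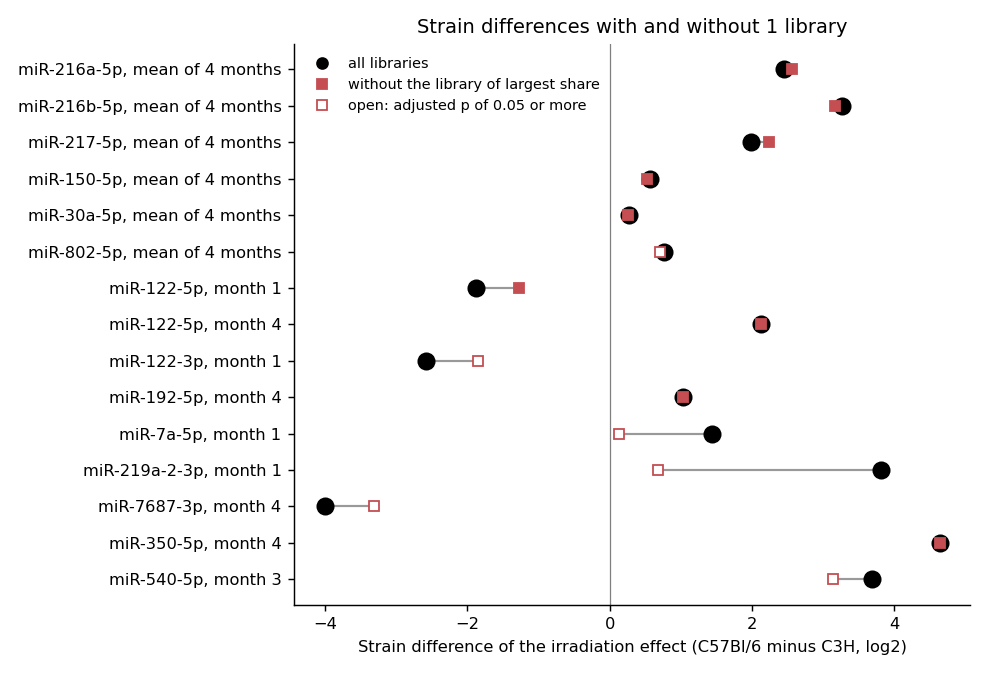
Each row is a called strain difference, and the x axis is its log2 value. Black circles are with all libraries. Red squares are without the 1 library that held the largest share of a group's summed CPM of that miRNA. Symbols are open where the adjusted p is 0.05 or more. The values of miR-216a-5p, miR-216b-5p, miR-217-5p and miR-150-5p stay close to their place, while miR-7a-5p goes from 1.44 to 0.13 and miR-219a-2-3p from 3.82 to 0.68 at month 1.

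Some miRNA differed between irradiated and sham mice in both strains without a called strain difference. The largest was miR-202-5p, a miRNA of testis and ovary, whose mean ratio of irradiated to sham mice was 0.074 in C57Bl/6 (adjusted p = 1.97e-24) and 0.0832 in C3H (adjusted p = 5.83e-18) by edgeR. Its median at month 2 was 0.23 log2 CPM, the level of no read, in irradiated mice of both strains, against 2.47 in sham C57Bl/6 and 2.29 in sham C3H mice. The mean strain difference of miR-202-5p was -0.17 (95% interval -1.31 to 0.97, adjusted p = 0.945). That mean averages values of both signs: -1.69, 0.70, 0.47 and -0.16 at months 1 to 4. None of them was called, nor was the F test (adjusted p = 0.85 by edgeR). At month 1, 3 of 68 irradiated C57Bl/6 and 18 of 58 irradiated C3H mice lay above the sham median of their strain.

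From the p53-induced miR-34 family, miR-34a-5p and miR-34c-3p were higher in irradiated mice of both strains. The ratio over the 4 months was 1.64 in C57Bl/6 and 1.38 in C3H for miR-34a-5p, and 1.79 and 2.02 for miR-34c-3p, all with adjusted p of 0.000145 or less by edgeR. Their mean strain differences were 0.25 (95% interval -0.02 to 0.52) and -0.17 (95% interval -0.50 to 0.15), and that of miR-34b-3p was -0.26 (95% interval -0.62 to 0.09). Of 8 listed family members 6 were tested, 0 were called by the F test or the mean, and their median was -0.04. Over all 483 miRNA, 14 were called by either test.

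The paralogs of the miR-17/92 cluster are linked to proliferation. At month 1, miR-106a-5p was 1.44-fold higher in irradiated C57Bl/6 and 2.18-fold higher in irradiated C3H mice, and miR-18b-5p 1.95-fold and 2.74-fold, each called within its strain. The strain difference at month 1 was -0.60 ± 0.20 (adjusted p = 0.144) for miR-106a-5p and -0.49 ± 0.23 (adjusted p = 0.583) for miR-18b-5p by edgeR. Of the 13 members tested, 0 were called by the F test or the mean, and the median was 0.02. The same tests called 14 of all 483 miRNA. For miR-335-5p the ratio over the months was 1.73 in C57Bl/6 and 1.30 in C3H, with a mean strain difference of 0.41 (95% interval 0.11 to 0.71, adjusted p = 0.158 by edgeR).

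Lists for other tissues gave few or no calls, beside 14 of 483 miRNA called by the F test or the mean. At that share, a count of 0 in a list this short says little about its tissue. By the F test or the mean, 0 of 12 miRNA of fibrosis and stroma were called (median of the mean strain difference -0.07), 0 of 10 epithelial (0.08), 0 of 7 muscle (0.06), 0 of 2 endothelial (0.04) and 0 of 2 gonadal miRNA (-0.11), and 1 of 6 neural miRNA, the miR-219a-2-3p described above (0.29). The stromal miR-199a-5p had the lowest value among them, -0.49 ± 0.18 (adjusted p = 0.158 by edgeR), and the fibrosis-linked miR-21a-5p had -0.01 ± 0.07; both were named after their values were seen. Of 11 red blood cell miRNA, 0 were called, with a median of -0.003. Their summed share of reads had a median of 44.8% to 60.7% in the 16 groups and ranged from 19.0% to 78.4% in single libraries, and its part in the strain differences was not tested.

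The strain difference itself differed between females and males for 2 of 483 miRNA (0.414%) in an edgeR fit with sex in the groups, miR-494-3p and miR-6900-3p, with 39 at an unadjusted p under 0.05. Both had few reads. Reads of miR-494-3p were found in 0 of 9 irradiated C3H males and 0 of 8 sham C57Bl/6 males at month 4, and reads of miR-6900-3p in 0 of 15 irradiated C57Bl/6 males at month 3. Neither was called by limma-voom, which called 0 miRNA with 30 at an unadjusted p under 0.05. Of the miRNA described above with a called F test or mean, none had a called sex difference.

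Total counts in the 454 libraries ranged from 419249 to 11814515 (median 1605119), with a median of 1768523 in C3H and 1513569 in C57Bl/6, and 6 libraries were under 500000. A miRNA at a level of a few reads per library, such as miR-216b-5p, is at the limit of this depth. Samples of the same mouse at several months are not independent. Only the fits with a mouse block, and the fit of the mean with 1 value per mouse of cohort 1, took this into account.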

How the data were processed

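Plasma small RNA was sequenced from C57Bl/6 and C3H mice, and the deposited table holds counts of reads per mature miRNA (1915 miRNA, 899 samples), made by the authors and not normalized. Reads had been assigned with genome build mm10 per the labels. Samples were grouped by strain, treatment and time point from the labels. The sex and mouse number came from the sample titles, as did the group code that is called cohort here. Counts were tested with edgeR 4.0.16 in R 4.3.3 with TMM scaling (factors 0.372 to 1.59), filterByExpr, 32 group means over all 899 samples, quasi-likelihood tests and Benjamini-Hochberg adjustment, with a threshold of 0.05. The filter kept 483 miRNA with 99.99% of reads. A standard error (SE) is the log2 fold change divided by the root of F, and intervals are 95%. Levels are log2 CPM with a prior count of 2. Counting floors cover counting error only, since reads are not independent molecules. Late libraries held 419249 to 11814515 reads, which limits miRNA with few reads per library.

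Named miRNA were all those called by the F test over the months, the largest call in each direction at each month, and 14 fixed miRNA. These members, the lists and the tests were chosen with earlier results of these data known. The mouse number in the titles links samples of the same mouse: residuals of 106 miRNA correlated at 0.0905 over 510 within-mouse pairs and at 0.00128 over 94312 pairs of different mice. Strains and treatments share no mice, but the F test, the mean and the change between months combine samples of the same mice, and the mouse was a block (random or fixed, in limma-voom) only in alternatives. Other alternatives were 1 value per mouse of cohort 1 in limma, DESeq2 1.42.0, limma-voom (limma 3.58.1), quantile normalized log2 values, other filters and subsets of mice or libraries. The library of largest share was the one with the largest part of a late group's summed CPM of a miRNA. Only groups with at least 20 reads of that miRNA were searched. The fitting scripts were tested on simulated data. Mature sequences and their positions came from RefSeq in GRCm38.p6. Gene positions, the intron or intergenic status and the span of the cluster came from the GENCODE annotation of GRCm38.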

Additional observations from a re-analysis of the deposited data

Results flagged for a closer look

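Each result here was a difference between groups under the same contrast, and each was tested by an edgeR quasi-likelihood F test with adjustment over 483 miRNA. The irradiated to sham ratio differed between the strains over months 1 to 4 for miR-216a-5p (adjusted p = 1.3e-20), miR-122-5p (3.5e-08), miR-216b-5p (2.99e-07), miR-7a-5p (3.21e-05), miR-217-5p, miR-150-5p and miR-219a-2-3p (each 4.79e-05), miR-7687-3p (0.00727), miR-192-5p (0.0275) and miR-30a-5p (0.0367). The strain difference changed between months for miR-122-5p (adjusted p = 2.75e-08), miR-7687-3p (0.00981), miR-7a-5p (0.0176), and miR-192-5p and miR-540-5p (each 0.0452). Month 1 holds both cohorts and the later months only cohort 1, so the change mixes month with cohort. The strain difference differed between females and males for miR-494-3p (adjusted p = 0.000431) and miR-6900-3p (0.0155), both sparse and chosen after their values were seen. The F tests of miR-7a-5p, miR-219a-2-3p, miR-7687-3p, miR-192-5p and miR-30a-5p were not called without 1 library each (adjusted p = 0.991, 0.209, 0.0505, 0.0588 and 0.06 by edgeR).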

How the results depend on the processing

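Of 937 values of single miRNA recomputed, 697 kept their side of the threshold (18 of them, not called, with the other sign), 238 were no longer called, 2 became called and 0 called values changed sign. The 697 include values that were not called in the main fit and stayed so. All 238 losses fell on values called in the main fit. The mean of miR-216a-5p was called in 17 of 17 alternatives (2.01 to 2.73) and the F test of miR-122-5p in 17 of 17. The mean of miR-216b-5p was called in 16 of 17, of miR-217-5p in 16 of 17, of miR-150-5p in 16 of 18, of miR-30a-5p in 8 of 18 and of miR-802-5p in 5 of 17. The month 1 values of miR-122-5p and miR-150-5p were called in 13 of 19 and 7 of 19, and the month 4 value of miR-122-5p in 13 of 17. The month 4 values of miR-216a-5p, miR-216b-5p and miR-192-5p were called in 10 of 16, 10 of 16 and 10 of 17.

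Counts of called miRNA moved by over 1.5 times as follows, and the cause was not tested. Some of these settings used fewer samples or miRNA. DESeq2 called 6 by the F test, 1 at month 3, 3 at month 4 and 2 for the change between months, and its size factors in edgeR gave 6 for the mean. Limma-voom called 2 at month 1, 1 at month 4, 1 for the change and 0 for sex (30 unadjusted). Quantile normalized values in limma gave 4 by the F test, 1 at month 1, 1 at month 3, 0 at month 4 (38 unadjusted), 6 for the mean and 1 for the change. A single value per mouse in limma gave 4 for the mean. Without a filter, 1403 miRNA were tested and 152 were called by the F test, 27, 9, 40 and 39 at months 1 to 4, 28 for the mean, 96 for the change and 28 before irradiation, of which 9, 6, 1, 2, 6, 5, 5 and 0 were main calls. At a mean log2 CPM of 5 or more, 175 miRNA were tested and 3 were called by the F test, 3, 0, 0 and 1 at months 1 to 4, 2 for the mean, 2 for the change and 0 for sex (8 unadjusted).

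A replicate block for the mouse in limma-voom gave 2 called at month 1, 1 at month 4 and 1 for the change, and a fixed block for the mouse gave 3 by the F test, 1 at month 1, 1 at month 4, 2 for the mean and 1 for the change. Cohort 1 alone gave 6 by the F test, 0 at month 1 (22 unadjusted by edgeR), 5 for the mean and 3 for the change, and cohort 2 alone 10 at month 1. Mice sampled at all 4 months gave 0 at month 1 (27 unadjusted by edgeR), 6 for the mean and 3 for the change. Females alone gave 0 at month 4 (44 unadjusted by edgeR), 6 for the mean and 2 for the change. Males alone gave 6 by the F test, 3, 1 and 2 at months 1, 3 and 4, 6 for the mean and 3 for the change. Samples of months 1 to 4 alone gave 1 at month 3 and 2 for the change. Leaving out the mice without a first sample gave 1 at month 3 and 6 for the mean. Leaving out the libraries with the largest shares, chosen after seeing the data, gave 6 by the F test, 2 at month 1, 4 for the mean and 2 for the change.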

Other observations

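Across the 29 irradiated C57Bl/6 mice of month 4, all of cohort 1, log2 CPM of miR-216a-5p and miR-217-5p had a Pearson r of 0.76 and a Spearman rho of 0.81, and those of miR-122-5p and miR-192-5p 0.88 and 0.91. Each had a permutation p of 1e-05, the smallest that 100000 permutations can give (adjusted over 10 relations 5e-05), and r was 0.71 and 0.88 without the 2 mice farthest from the median. For miR-122-5p and miR-802-5p, r was 0.58 (adjusted permutation p = 0.0035) and rho 0.61 (0.0018), with r 0.51 without 2 mice. For miR-122-5p and miR-216a-5p, r was 0.35 (adjusted permutation p = 0.108) and rho 0.33 (0.121), with r 0.26 without 2 mice.

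Across the 17 irradiated C3H mice of month 4, miR-216a-5p and miR-217-5p had an r of 0.38 (adjusted permutation p = 0.166) and a rho of 0.35 (0.209), with r 0.13 without 2 mice. For miR-122-5p and miR-192-5p, r was 0.70 (adjusted permutation p = 0.00567) and rho 0.70 (0.0059), with r 0.64 without 2 mice. For miR-122-5p and miR-802-5p, r was 0.58 (adjusted permutation p = 0.0295) and rho 0.56 (0.0374), with r 0.49 without 2 mice. For miR-122-5p and miR-216a-5p, r was 0.32 (adjusted permutation p = 0.234) and rho 0.23 (0.383), with r 0.29 without 2 mice. The levels of 1 library share its scaling, and the difference between the strains in these relations was not tested.

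Between month 2 and month 4 of the same 29 irradiated C57Bl/6 mice, miR-216a-5p had an r of 0.33 (adjusted permutation p = 0.111) and a rho of 0.43 (0.0374), with r 0.48 without 2 mice. For miR-122-5p, r was 0.19 (adjusted permutation p = 0.323) and rho 0.20 (0.341), with r 0.14 without 2 mice.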
